A study of Mus musculus with 37 samples.

Results

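The genes described here are the Toll-like receptors Tlr2, Tlr3, Tlr4, Tlr7 and Tlr13, the adaptor Myd88 and the kinases Irak1, Irak2, Irak3 and Irak4, 10 named genes out of the 21975 in the count and TPM tables. All 10 were found by their Ensembl gene identifiers. They were chosen on earlier readings of these same data: Irak4 because its counts differed with hemisphere and with post-traumatic epilepsy (PTE), and Tlr13 because the study names it. The values of Irak4 in every comparison that holds injured mice, and those of Tlr13 in every comparison that holds the ipsilateral PTE+ libraries, are therefore given as a description with no test. Adult male CD1 mice (the genotype field of the labels reads CD31) received a severe controlled cortical impact to one hemisphere, or craniectomy and electrode alone in the sham group, and were followed by video and EEG. Injured mice with repeated epileptic episodes were called PTE+ and those without PTE-. At 4 months after injury, hippocampal astrocytes were pulled down with ACSA-2 beads, an antibody to an astrocyte surface antigen, and each hemisphere gave its own RNA-seq library. On the contralateral side there were 5 PTE+, 10 PTE- and 5 sham libraries, and on the ipsilateral (injured) side 4 PTE+, 8 PTE- and 5 sham libraries, each from 1 mouse, with 17 of the 20 mice present on both sides. All groups share the craniectomy and electrode, so no group is of untouched mice.

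Toll-like receptors are pattern receptors of innate immunity. Tlr2 and Tlr4 sit at the cell surface and sense lipoproteins and lipopolysaccharide, whereas Tlr3, Tlr7 and Tlr13 sense double-stranded RNA, single-stranded RNA and bacterial ribosomal RNA inside endosomes. All of these receptors except Tlr3 signal through the adaptor Myd88, which gathers Irak4 and then Irak1 or Irak2 into a complex that switches on NF-kB and MAP kinases, while Irak3 (also called IRAK-M) lacks effective kinase activity and acts as a brake. In the brain these genes are best known from microglia, and Tlr3 is also known from astrocytes.

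The 4 Irak kinases split into a pair read in every library (Irak1, Irak2) and a pair read in some libraries only (Irak3, Irak4), so the 250 bases before their RefSeq starts (GRCm38.p6, the same coordinates as mm10) are shown side by side, 5′ to 3′, with CG dinucleotides in capitals.
Irak1: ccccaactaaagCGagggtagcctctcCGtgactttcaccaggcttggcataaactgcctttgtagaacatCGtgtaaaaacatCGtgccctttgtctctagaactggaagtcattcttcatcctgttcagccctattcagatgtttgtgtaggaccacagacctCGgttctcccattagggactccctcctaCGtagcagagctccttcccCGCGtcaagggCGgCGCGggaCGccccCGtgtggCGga
Irak2: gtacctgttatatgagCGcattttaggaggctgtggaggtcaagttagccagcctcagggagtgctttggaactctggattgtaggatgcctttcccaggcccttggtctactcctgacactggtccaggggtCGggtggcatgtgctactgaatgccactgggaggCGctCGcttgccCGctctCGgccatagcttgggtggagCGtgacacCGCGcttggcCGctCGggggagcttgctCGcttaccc
Irak3: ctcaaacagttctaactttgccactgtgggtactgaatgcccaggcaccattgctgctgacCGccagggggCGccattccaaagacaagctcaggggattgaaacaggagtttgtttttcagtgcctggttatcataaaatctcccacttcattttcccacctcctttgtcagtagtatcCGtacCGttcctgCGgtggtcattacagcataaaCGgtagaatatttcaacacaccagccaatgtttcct
Irak4: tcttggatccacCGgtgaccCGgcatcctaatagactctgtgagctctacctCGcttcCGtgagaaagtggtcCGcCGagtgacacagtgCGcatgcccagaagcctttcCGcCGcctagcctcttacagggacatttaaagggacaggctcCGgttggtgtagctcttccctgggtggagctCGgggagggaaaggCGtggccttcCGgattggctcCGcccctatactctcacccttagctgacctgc
The Irak1 window lies at chrX:74023919-74024168 on the minus strand and held 14 CG dinucleotides (the window of its other start, shifted by a few bases, held 13). The Irak2 window at chr6:113638217-113638466 on the plus strand held 12. The Irak3 window at chr10:120202131-120202380 on the minus strand held 6, although the window of its other RefSeq start, at chr10:120201598-120201847, held 19 and lies inside the gene as GENCODE draws it. The Irak4 window at chr15:94543410-94543659 on the plus strand held 14 as well, and 17 of its bases overlap the start of the GENCODE gene. The median over all 32851 RefSeq windows of this length was 6, and 29.4% of them held at least 14. CG content near the start thus did not separate the pair read everywhere from the pair read in some libraries. Of the other members, windows were held for Tlr2 (11 CG), Myd88 (9), Tlr3 (6) and Tlr13 (5). By GENCODE on mm10 the protein-coding receptor genes lie at chr3:83836272-83841767 (Tlr2, minus strand), chr8:45395665-45411080 (Tlr3, minus), chr4:66827584-66930284 (Tlr4, plus), chrX:167304929-167330558 (Tlr7, minus) and chrX:106143204-106160493 (Tlr13, plus).

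The libraries held 25371887 to 59846479 counts, so 3 counts, taken here as the limit of a reading, correspond to 0.0501 to 0.118 CPM (counts scaled to a common library total). All 12 astrocyte markers, among them Aldh1l1, Slc1a2, Aqp4 and Gfap, were above this limit in all 37 libraries. Microglial markers were also present. All 16, summed, ranged from 485 to 938 CPM in contralateral PTE+ libraries, from 27.1 to 2054 in contralateral PTE- and from 135 to 876 in contralateral sham. On the ipsilateral side they ranged from 73.7 to 853 CPM in PTE+, from 176 to 1308 in PTE- and from 133 to 1342 in sham. The contralateral PTE- library of mouse a9_14 had 13 of the 16 at 0 and the ipsilateral PTE+ library of mouse a9_19 had 11 at 0, while P2ry12 and Tmem119 were over 3 counts in 33 of the 37 libraries. The 7 endothelial markers, summed, ranged from 589 to 3524 CPM in contralateral PTE+, 337 to 1626 in contralateral PTE- and 366 to 1238 in contralateral sham libraries, and from 26.9 to 1543 in ipsilateral PTE+, 117 to 1492 in ipsilateral PTE- and 226 to 868 in ipsilateral sham libraries. The 8 markers of perivascular or infiltrating macrophages, summed, ranged from 20.3 to 84.0, 0 to 77.4 and 0.0852 to 36.3 CPM in contralateral PTE+, PTE- and sham libraries, and from 0.0407 to 44.2, 0.229 to 155 and 9.16 to 38.5 CPM in the ipsilateral ones. The 8 oligodendrocyte markers, summed, had medians of 1259, 1099 and 1398 CPM in contralateral PTE+, PTE- and sham libraries. Ipsilaterally these were 943, 865 and 1524 CPM. Medians of the 8 neuronal markers, summed, were 409, 243 and 441 CPM contralaterally and 462, 440 and 297 CPM ipsilaterally, in the same order. The ipsilateral PTE- library of mouse a8_11 stood apart with the fewest genes detected, 9020, against a median of 14450 over the ipsilateral libraries, followed by the ipsilateral libraries of sham mouse a9_9 (10886) and PTE- mouse a8_14 (11271). Genes detected ran from 13859 to 15028 in contralateral PTE+, 11756 to 15315 in contralateral PTE- and 12122 to 15321 in contralateral sham libraries, and from 12912 to 15393 in ipsilateral PTE+, 9020 to 15537 in ipsilateral PTE- and 10886 to 15545 in ipsilateral sham libraries. Median genes detected were 14419, 13184 and 14520 in contralateral PTE+, PTE- and sham libraries, and 13859, 14219 and 15089 in the ipsilateral ones. The number of the 10 members read, the chosen Irak4 and Tlr13 among them, had a median of 7 in contralateral PTE+ against 5 in PTE- and 6 in sham libraries. Ipsilaterally it was 4 in PTE+ against 6.5 in PTE- and 6 in sham libraries. Sham libraries thus had the highest median of genes detected on each side, but not of members read. In bulk samples such as these, fewer cells of a type and less RNA per cell cannot be told apart.

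Read in TPM, which scales counts by transcript length as well, the members fell into a top, a middle and a low level. Irak1, Irak2 and Tlr3 formed the top: over all 37 libraries their mean TPM was 106 ± 67.8, 104 ± 48.9 and 47.5 ± 26.7 (SD). Irak1 and Irak2 exceeded 3 counts in 37 libraries and Tlr3 in 36. Myd88 followed at 15.6 ± 15.1 TPM, with more than 3 counts in 29 libraries. The remaining 6 were low and patchy: Irak4 (3.55 ± 13.6 TPM, 23 libraries over 3 counts), Tlr4 (2.37 ± 4.00, 22 libraries), Tlr13 (1.93 ± 6.89, 9 libraries), Irak3 (1.07 ± 2.09, 13 libraries), Tlr2 (0.776 ± 2.10, 10 libraries) and Tlr7 (0.467 ± 1.27, 6 libraries). The ipsilateral library of mouse a8_11 carries much of the first and the third, since without it the mean was 1.38 ± 3.49 TPM for Irak4, below Tlr4, and 1.015 ± 4.15 TPM for Tlr13 (SD, n = 36). In contralateral libraries, ordered by mean log2(TPM + 1), Irak2 and Irak1 did not differ beyond their spread (permutation p = 0.471, adjusted 0.842, two-sided sign-flip test over 20 libraries). Irak1 was above Tlr3 in 19 of 20 libraries (difference 1.08 on the log2 scale, permutation p = 4e-05, adjusted 0.00072), Tlr3 was above Myd88 in 16 (2.02, adjusted permutation p = 0.0013) and Myd88 was above Tlr4 in 16 (2.08, adjusted permutation p = 0.00198). From Tlr4 downwards no neighbours in the order differed beyond their spread, with adjusted permutation p from 0.339 to 0.876. The ipsilateral order had the same steps, Irak1 and Irak2 first, then Tlr3, then Myd88, and no step below Irak4 (adjusted permutation p from 0.599 to 0.981). Adjustment was over the 18 neighbour pairs.

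**Figure D1:**
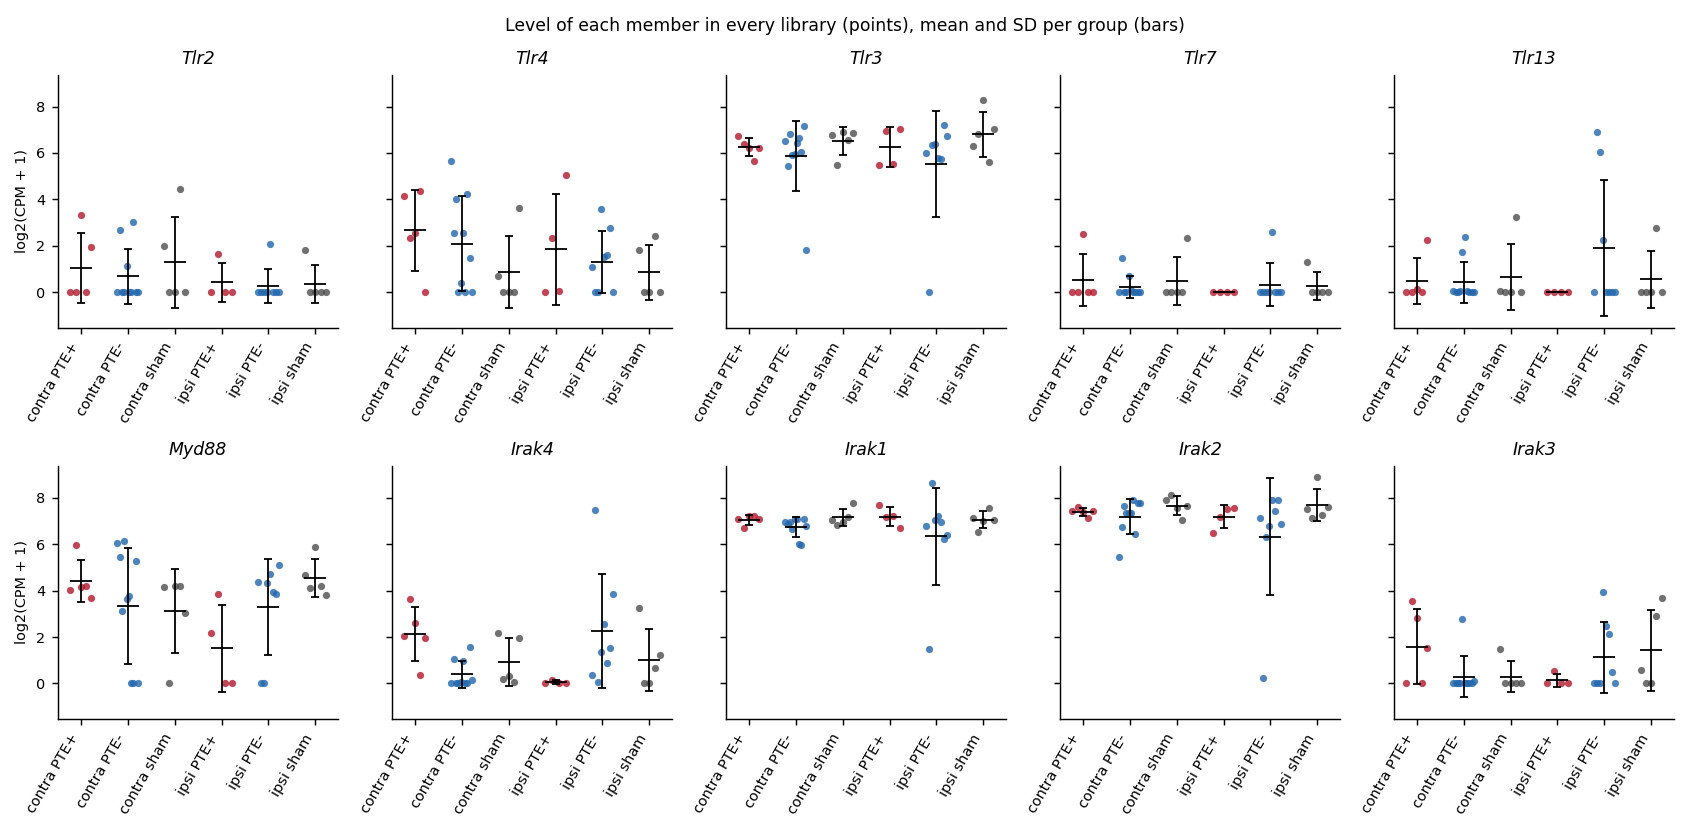
Each point is 1 library and shows the log2(CPM + 1) of the gene named above the panel, by hemisphere and status; bars give the group mean and SD. Irak1, Irak2 and Tlr3 lie high in nearly every library, Myd88 falls to 0 in 8 of 37, and the other 6 genes are at or near 0 in many libraries.

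**Figure D2:**
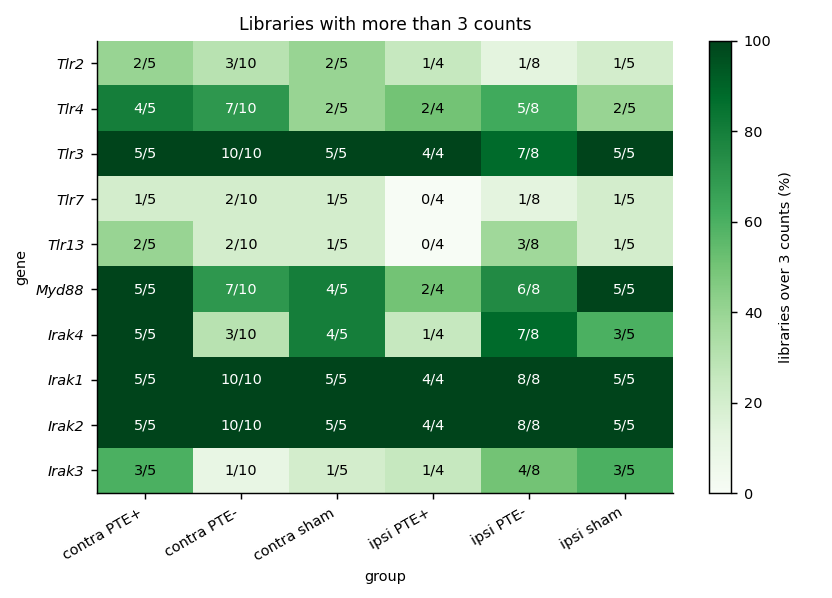
Number of libraries with more than 3 counts out of all libraries of each group, coloured by percent. Irak4 was read in 5 of 5 contralateral PTE+ libraries but 1 of 4 ipsilateral PTE+ libraries, and Tlr7 and Tlr13 in 0 of 4 ipsilateral PTE+ libraries.

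Irak4, the kinase that starts the Myd88 complex, showed the pattern for which it was chosen. On the contralateral side the 5 PTE+ libraries read 0.300, 2.94, 3.15, 5.02 and 11.4 CPM. The 10 contralateral PTE- libraries ran from 0 to 1.93 CPM with a median of 0.0354, and the 5 sham libraries read 0.0459, 0.128, 0.264, 2.94 and 3.46 CPM. Thus 4 of the 5 PTE+ libraries were above every PTE- library, and PTE+ and sham overlapped. On the ipsilateral side the order turned. The 4 PTE+ libraries held 0, 0, 0 and 0.123 CPM, the 8 PTE- libraries ran from 0.0428 to 179 CPM with a median of 1.72, and the 5 sham libraries read 0, 0.0181, 0.561, 1.31 and 8.44 CPM. In all, 7 of 8 PTE- libraries were above every PTE+ library. The edgeR log2 fold change of PTE+ over PTE- was 3.45 (SE 1.496) contralaterally and -9.57 (SE 3.12) ipsilaterally. The highest value, 179 CPM, belongs to the library of mouse a8_11 that stands apart, in which Irak1 read 1.83 CPM, Irak2 0.178, and Tlr3 and Myd88 0. Without this library the ipsilateral log2 fold change was -6.64. The contralateral one was 2.78 without PTE+ mouse a8_17, which holds the highest contralateral value. Within each of the 2 prefixes of the mouse names, a8 and a9, whose meaning the labels do not give, the contralateral difference in mean log2(CPM + 1) was 2.57 and 1.19, and the ipsilateral one -2.63 (1 PTE+ library with prefix a8) and -1.98.

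Read within each mouse, Irak4 was higher on the ipsilateral side in 8 of 8 PTE- mice and lower there in 4 of 4 PTE+ mice. In PTE- mouse a8_14 both libraries were under the limit of a reading (1 and 2 counts), so by that limit 7 PTE- mice had a difference to read. By contrast the 5 sham mice split, 2 higher and 3 lower. The edgeR log2 ratio of ipsilateral to contralateral was 5.65 (SE 1.80) in PTE- mice, and 2.995 without mouse a8_11. In PTE+ mice it was -6.40 (SE 2.64), and the difference between the 2 was -12.05 (SE 3.44), or -9.39 without mouse a8_11. With the mouse as a replicate block, since both libraries come from the same animal, this difference was -12.64. Against sham mice, which had no part in the choice but were set against the libraries that did, PTE+ gave an ipsilateral log2 fold change of -5.94 (SE 2.69), or -3.81 without sham mouse a8_15 and -9.64 without PTE+ mouse a9_17. PTE- against sham gave -1.72 (SE 1.47) contralaterally and 3.63 (SE 2.09) ipsilaterally, the latter 0.82 without mouse a8_11. The hemisphere difference of PTE- against sham mice was 5.05 (SE 2.55), or 2.48 without mouse a8_11 and 5.72 with the replicate block. These values of Irak4 all describe the choice of the gene and carry no test. Irak4 (chr15:94543643-94581815, plus strand) shares 395 of its 5021 exonic bases with Twf1 on the opposite strand. As the library kit keeps no strand, reads from those bases cannot be told apart. Twf1 read 25.2 to 56.8 CPM in the ipsilateral PTE+ libraries in which Irak4 was at or near 0, and 97.2 CPM in the ipsilateral library of mouse a8_11.

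**Figure D3:**
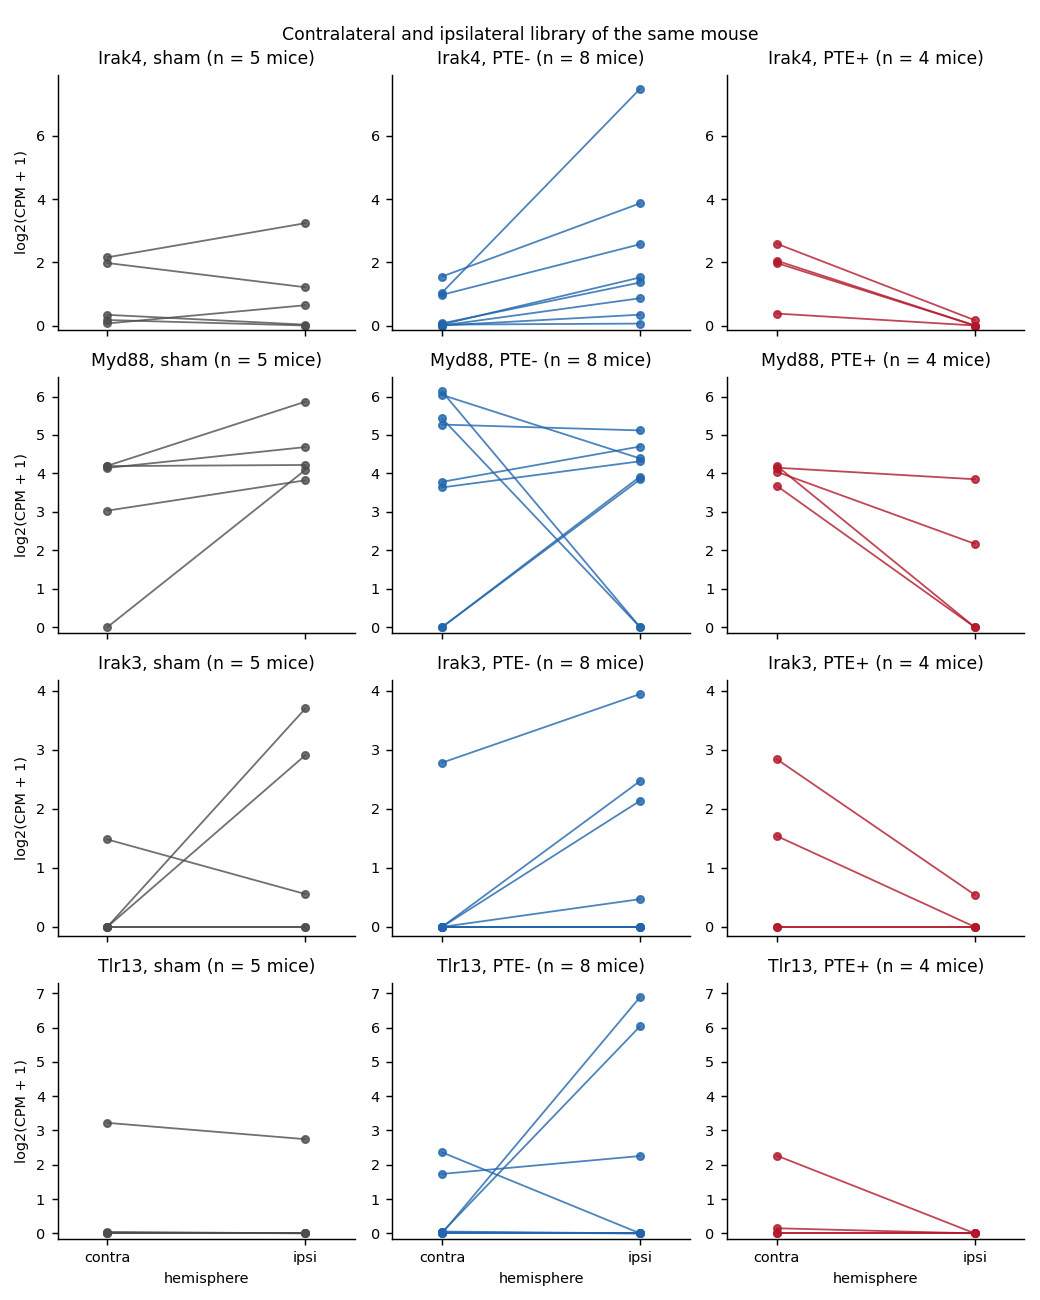
Lines join the contralateral and ipsilateral library of one mouse, as log2(CPM + 1), for Irak4, Myd88, Irak3 and Tlr13 in sham (5), PTE- (8) and PTE+ (4) mice. Irak4 lines go up in all 8 PTE- mice and down in all 4 PTE+ mice; Myd88 lines go up in all 5 sham mice and down in all 4 PTE+ mice.

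Myd88, the shared adaptor, was not chosen for its values. The 5 ipsilateral sham libraries read 13.1, 16.1, 17.6, 24.7 and 57.3 CPM, the 4 ipsilateral PTE+ libraries 0, 0, 3.50 and 13.4 CPM, and the 8 ipsilateral PTE- libraries ran from 0 to 33.8 CPM with a median of 16.5. Of the PTE+ libraries, 3 of 4 lay below every sham library, and the highest PTE+ library just overlapped the lowest sham library. The PTE+ libraries at 0, of mice a9_18 and a9_19, had 13268 and 12912 genes detected. These are the lowest of their group and below the ipsilateral median of 14450. The part of detection in the Myd88 values was not tested. The PTE- libraries at 0, of mice a8_11 and a8_14, had few genes detected, and without both the PTE- mean was 20.9 ± 7.60 CPM (SD, n = 6). The highest sham library, of mouse a9_9, had few genes detected too, and without it the sham mean was 17.9 ± 4.93 CPM (SD, n = 4). The exact permutation test on log2(CPM + 1) gave p = 0.0159 for PTE+ against sham (two-sided, smallest possible 0.00794), while edgeR gave a log2 fold change of -2.61 (SE 2.00) that did not pass its unadjusted threshold (unadjusted p = 0.209). On the log2(TPM + 1) scale limma gave -2.78 (SE 1.12, unadjusted p = 0.0226, adjusted 1.0). With 1 library left out the edgeR value ran from -4.46 (without PTE+ mouse a9_17) to -2.08 (without sham mouse a9_9), with unadjusted edgeR p from 0.0893 to 0.324. Contralaterally, Myd88 read 11.8, 15.5, 16.7, 17.4 and 61.4 CPM in PTE+ mice, 0 to 69.2 CPM (median 12.1) in PTE- mice and 0, 7.18, 16.7, 17.3 and 17.4 CPM in sham mice, and the groups overlapped. Within mice, the ipsilateral library was higher in 5 of 5 sham mice (mean log2 difference 1.42, exact permutation p = 0.0625, the smallest that 5 mice allow), lower in 4 of 4 PTE+ mice (mean -2.51, exact permutation p = 0.125, the smallest that 4 mice allow) and split 4 to 4 in PTE- mice. In 2 of the PTE+ mice the ipsilateral library held 0 counts, and in PTE- mice a8_11 and a8_14, both among the 4 lower, it did so too. Among sham mice the contralateral library of a8_16 held 0 counts, with 12122 genes detected, which gave the largest difference, 4.09. The smallest was 0.0303, in sham mouse a9_10 (17.26 CPM contralaterally and 17.64 ipsilaterally). The means of PTE+ and sham mice thus differed by -3.94 for Myd88, a value set down after these signs were seen and not tested. Myd88 (chr9:119335934-119341411, minus strand) shares 290 of its 2576 exonic bases with Acaa1a on the opposite strand, whose own level was 214 to 383 CPM in ipsilateral PTE+ and 147 to 353 CPM in ipsilateral sham libraries. Microglial markers, summed, of the 2 ipsilateral PTE+ libraries at 0 for Myd88 were 80.2 CPM (mouse a9_19) and 673 CPM (mouse a9_18), and the part of these cells in the result was not tested.

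Irak3, the braking kinase, was read in 3 of 5 contralateral PTE+ libraries (1.91, 6.16 and 10.9 CPM, the other two at 0) but in 1 of 10 contralateral PTE- libraries (5.87 CPM) and 1 of 5 sham libraries (1.79 CPM). On the ipsilateral side it was read in 1 of 4 PTE+ libraries (0.456 CPM), 4 of 8 PTE- libraries (0.386, 3.40, 4.54 and 14.4 CPM) and 3 of 5 sham libraries (0.470, 6.51 and 11.99 CPM). Like Irak4, its readings were thus more frequent in PTE+ mice on one side and in PTE- mice on the other. The number of members read per library turned likewise, but it counts Irak3 itself and the chosen Irak4 and Tlr13, so it is no separate observation. Contralateral PTE+ libraries had a median of 14419 genes detected against 13184 in contralateral PTE- libraries. The part of detection in the result was not tested. The exact permutation p was 0.0436 for contralateral PTE+ against PTE- and 0.0444 for the difference of the hemisphere difference between PTE+ and PTE- mice. EdgeR passed neither, with log2 values of 2.70 (SE 2.20) and -6.06 (SE 4.11). Limma passed the first without adjustment. It gave 0.95 on log2(TPM + 1) (limma unadjusted p = 0.0384, adjusted 0.878) and 2.32 on log2(TPM + 0.1) (limma unadjusted p = 0.0376, adjusted 0.882). With the replicate block the second became -8.88 (SE 3.86, edgeR unadjusted p = 0.0447, adjusted 1.0). Without PTE- mouse a9_12, which holds the 1 contralateral PTE- reading, it was -12.91 (edgeR unadjusted p = 0.00879, not passed with adjustment). The other 15 alternatives of the second did not pass, among them -1.19 with limma on log2(TPM + 1) and -5.68 without PTE+ mouse a9_19. In further comparisons, leaving out 1 library or mouse also put Irak3 past the unadjusted edgeR threshold. Among them was ipsilateral PTE+ against PTE- (-10.1 without PTE+ mouse a9_17, edgeR unadjusted p = 0.0348). None passed with adjustment. Over all 96 exact tests on the members, 3 had a p below 0.05 (those of Irak3 above and that of Myd88) and 0 an adjusted p below 0.05, each adjusted p being 1.0. Irak3 shares 192 of its 3676 exonic bases with Tmbim4 on the opposite strand, so that part of its counts is uncertain.

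Tlr13, the endosomal sensor of bacterial ribosomal RNA, was read in few libraries. On the ipsilateral side 3 of 8 PTE- libraries held it, at 118, 64.7 and 3.77 CPM (mice a8_11, a8_14 and a9_12), the other 5 were at 0, all 4 PTE+ libraries were at 0, and 1 of 5 sham libraries read 5.71 CPM. The first 2 therefore carried nearly all Tlr13 counts of the PTE- group, the higher being the library that stands apart. Against a limit of 3 counts per library, the mean of PTE+ was at least 414-fold lower than that of PTE-, with 5 of 8 PTE- libraries at 0 as well. This bound rests on libraries with few genes detected, as it was 174-fold without mouse a8_11, 309-fold without mouse a8_14 and 11.2-fold without both. The same limit gives at least 20.3-fold lower than sham, from the single sham library. Within the prefixes, the PTE+ minus PTE- difference in mean log2(CPM + 1) was -4.31 for a8 (1 PTE+ library) and -0.451 for a9. Contralaterally, 2 of 5 PTE+, 2 of 10 PTE- and 1 of 5 sham libraries were over 3 counts, with no value above 8.33 CPM. In PTE+ mice the ipsilateral mean was at least 17.5-fold below the contralateral one, with 2 mice lower and the other two at 0 on both sides. This rests on mouse a9_19, whose contralateral library held 144 counts against 4 in that of mouse a9_17, and without it the contralateral mean of 0.0364 CPM was itself under the limit, so no fold is left. These values of Tlr13 carry no test.

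Tlr7, the endosomal sensor of single-stranded RNA, was the rarest member. It was read on the contralateral side in 1 PTE+ library (4.69 CPM, mouse a9_17), 2 PTE- libraries (1.80 and 0.599 CPM) and 1 sham library (4.03 CPM), and on the ipsilateral side in 1 PTE- library (5.10 CPM) and 1 sham library (1.49 CPM). The 4 ipsilateral PTE+ libraries were at 0. EdgeR put Tlr7 past its unadjusted threshold for the ipsilateral over contralateral ratio in PTE+ mice (p = 0.0381, adjusted 1.0) and for the difference of that ratio from PTE- mice (p = 0.0349, adjusted 1.0), with the ipsilateral mean at least 20.9-fold lower. Mouse a9_17 is the 1 PTE+ mouse with a reading, and without it the unadjusted edgeR p was 1.0 for both. Leaving out any other PTE+ mouse also lost both calls (unadjusted edgeR p from 0.0555 to 0.0639), as did leaving out PTE- mouse a9_13 for the latter (1.0). With the replicate block the values were -3.41 (edgeR unadjusted p = 0.257) and -1.64 (edgeR unadjusted p = 0.587), and the exact permutation p was 1.0 and 0.412. Tlr2, the lipoprotein receptor, was read in 7 of 20 contralateral and 3 of 17 ipsilateral libraries, at most at 20.7 CPM in the contralateral sham library of mouse a9_10. Tlr4, the lipopolysaccharide receptor, was read in 4 of 5 contralateral PTE+ libraries (4.10, 4.80, 16.4 and 19.4 CPM), 7 of 10 contralateral PTE- libraries (highest 48.7 CPM) and 2 of 5 contralateral sham libraries (0.618 and 11.2 CPM). Ipsilaterally it was read in 2 of 4 PTE+ libraries (4.02 and 31.8 CPM), 5 of 8 PTE- libraries (highest 10.9 CPM) and 2 of 5 sham libraries (2.56 and 4.41 CPM). Groups overlapped for Tlr2 and Tlr4 in every comparison, and with all libraries in, neither passed the unadjusted threshold between groups or hemispheres. With 1 mouse left out, edgeR put Tlr2 past it between hemispheres in PTE- mice (without a9_13, unadjusted p = 0.00649) and in sham mice (without a8_15, unadjusted p = 0.0246). Tlr4 passed it for contralateral PTE- against sham (without a9_11, edgeR unadjusted p = 0.0453). None of these passed with adjustment.

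The abundant members gave the tightest estimates. Tlr3 averaged 77.1 ± 20.6 CPM (SD, n = 5) in contralateral PTE+, 75.6 ± 38.5 (n = 10) in PTE- and 96.1 ± 30.9 (n = 5) in sham libraries, and ipsilaterally 85.5 ± 47.4 (n = 4), 73.3 ± 43.5 (n = 8) and 134 ± 102 (n = 5). Irak1 averaged 134 ± 18.2, 110 ± 27.8 and 146 ± 41.4 CPM contralaterally, and 150 ± 42.7, 133 ± 115 and 136 ± 33.9 CPM ipsilaterally, in the same order of groups. Irak2 averaged 168 ± 19.5, 160 ± 63.2 and 207 ± 56.5 CPM contralaterally, and 150 ± 45.5, 137 ± 81.1 and 229 ± 138 CPM ipsilaterally. Groups overlapped for these 3 genes in every comparison, and none passed the unadjusted threshold. Their PTE+ over PTE- log2 fold changes were 0.28 (SE 0.23) for Irak1, 0.07 (SE 0.29) for Irak2 and 0.03 (SE 0.48) for Tlr3 contralaterally, and 0.17 (SE 0.67), 0.14 (SE 0.79) and 0.22 (SE 0.94) ipsilaterally. Without the PTE- library of mouse a8_11 the ipsilateral values were 0.022 (SE 0.38), -0.022 (SE 0.38) and 0.053 (SE 0.48), and the PTE- means were 152 ± 110 CPM for Irak1, 156.5 ± 64.2 for Irak2 and 83.7 ± 34.4 for Tlr3 (SD, n = 7). Leaving out other single libraries also turned the sign of values this near 0. Irak1 was highest, 395 CPM, in the ipsilateral PTE- library of mouse a8_14, and Irak2 and Tlr3 were highest, 472 and 308 CPM, in the ipsilateral sham library of mouse a9_9, both libraries with few genes detected. Without the former the PTE- mean of Irak1 was 95.8 ± 49.0 CPM (SD, n = 7), and without the latter the sham means were 168 ± 25.5 CPM for Irak2 and 90.95 ± 36.1 CPM for Tlr3 (SD, n = 4). The 2 deposited scales can part for single libraries: Tlr3 in the contralateral PTE- library of mouse a9_20 read 2.51 CPM (65 counts) but 22.02 TPM, and the cause was not tested.

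**Figure D4:**
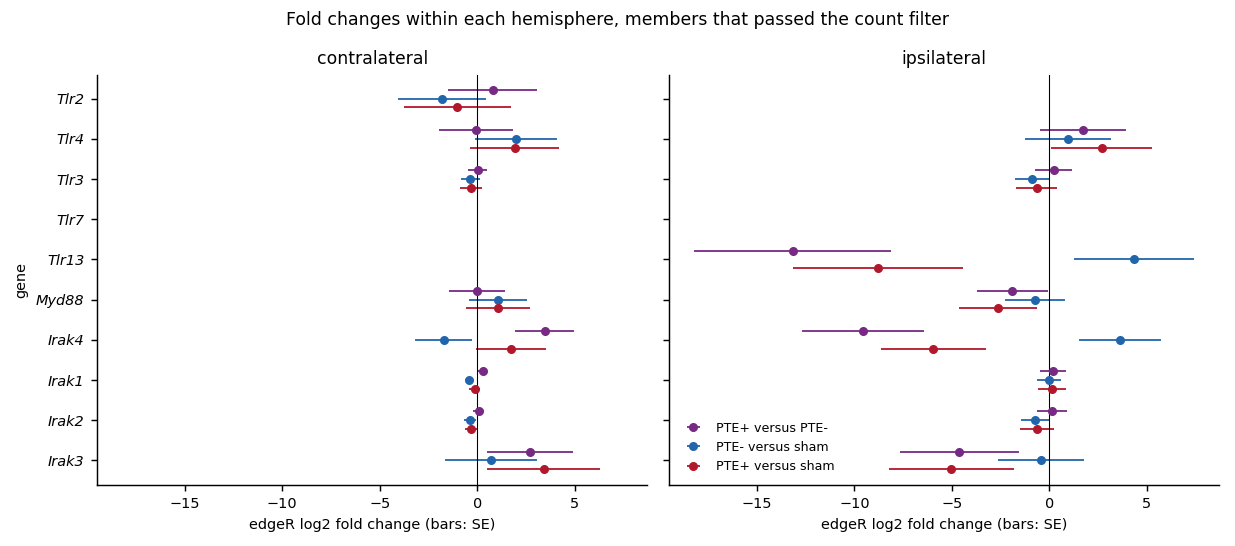
Points give the edgeR log2 fold change and bars its standard error for the 8 members that passed the count filter in each hemisphere (Tlr7 and Tlr13 contralaterally, and Tlr2 and Tlr7 ipsilaterally, did not pass). Irak1, Irak2 and Tlr3 lie near 0 with short bars, and Irak4 and Tlr13 have the widest departures, with PTE+ over PTE- at -9.57 and -13.16 ipsilaterally; the fitted value of Tlr13 depends on the prior count because all 4 PTE+ libraries are at 0.

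The counts of members are set beside the share of all genes tested in the same fit. Irak4 and Tlr13 enter these counts by choice, so their p is no test. On the contralateral side 1 of the 8 members that passed the count filter had an unadjusted edgeR p below 0.05 for PTE+ against PTE- (Irak4), where 2.21% of 14642 genes did. For PTE- against sham 0 of 8 did, against 1.54% of all genes, and for PTE+ against sham 0 of 8, against 1.23%. On the ipsilateral side the counts were 2 of 8 for PTE+ against PTE- (Irak4 and Tlr13, the members chosen on this contrast, of which Tlr13 no longer passed the count filter without mouse a8_11, a8_14 or a9_12), against 1.75% of 14903 genes, 0 of 8 for PTE- against sham, against 1.58%, and 1 of 8 for PTE+ against sham (Irak4), against 1.66%. Between hemispheres all 10 passed the filter. The counts were 0 of 10 in sham mice, against 2.05% of 15731 genes, 1 of 10 in PTE- mice (Irak4), against 4.56%, and 3 of 10 in PTE+ mice (Irak4, Tlr7 and Tlr13), against 2.93%. For the hemisphere difference, 3 of 10 (again Irak4, Tlr7 and Tlr13) had such a p between PTE+ and PTE- mice, against 2.94%, and 0 of 10 between PTE- and sham mice, against 3.13%. The 2 libraries of a mouse are separate in these fits. With the mouse as a replicate block the genes with such a p for the hemisphere difference of PTE+ against PTE- fell from 462 to 182, and the members were 2, Irak4 and Irak3, with Tlr7 and Tlr13 no longer among them (Tlr13 -5.88, from -13.32). Nothing is read from the counts that Irak4 and Tlr13 entered by choice. Of the members not chosen, the main fits counted only Tlr7, in the hemisphere comparison of PTE+ mice and in its difference from PTE- mice. The PTE+ libraries are shared by these comparisons, as are the PTE- libraries, so the counts are not independent. With Benjamini-Hochberg adjustment no member passed edgeR in any comparison. Over all genes, 1 gene (0.00683%) passed for contralateral PTE+ against PTE- and 0 (0.0%) in the other 10 comparisons, whereas DESeq2 passed 19 to 253 genes per comparison. Of the 98 member-by-comparison results it gave no adjusted p for 21 and passed 0 of the other 77. The common biological coefficient of variation was 1.32 contralaterally and 1.40 ipsilaterally.

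Because the same receptors are known from microglia, the members were set against the summed microglial markers over the libraries of each hemisphere. Irak2 was lower where the markers were higher contralaterally (Pearson r = -0.523, permutation p = 0.0283, adjusted 0.283; Spearman rho = -0.593, permutation p = 0.00677, adjusted 0.135; r = -0.527 without the 2 libraries farthest from the median), and less so ipsilaterally (r = -0.212, permutation p = 0.429, adjusted 0.697; rho = -0.140, permutation p = 0.592, adjusted 0.789). Tlr3 had negative rho on both sides, -0.465 (permutation p = 0.0407, adjusted 0.204) and -0.554 (permutation p = 0.0228, adjusted 0.152), with r of -0.293 (permutation p = 0.174, adjusted 0.640) and -0.381 (permutation p = 0.137, adjusted 0.640), or -0.211 and -0.347 without the 2 farthest libraries. Tlr4 had the Pearson r farthest from 0 on the ipsilateral side, -0.557 (permutation p = 0.0204, adjusted 0.283; rho = -0.427, permutation p = 0.0902, adjusted 0.361), which was -0.275 without the 2 farthest libraries and -0.538 with group means removed (permutation p = 0.0282, adjusted 0.282), against 0.249 contralaterally (permutation p = 0.298, adjusted 0.662; rho = 0.286, permutation p = 0.221, adjusted 0.631). Tlr2 had the highest positive rho, 0.549 contralaterally (permutation p = 0.0139, adjusted 0.139; r = 0.422, permutation p = 0.0596, adjusted 0.397, or 0.433 without the 2 farthest), and -0.0387 ipsilaterally. Irak4 had rho of 0.0497 and 0.186, Tlr13 0.114 and 0.264, and Myd88 0.176 and 0.274. None of the 20 member-by-hemisphere pairs passed after adjustment, with group means removed or on the TPM scale either. Whether microglial RNA contributes to any member's level was not tested.

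**Figure D5:**
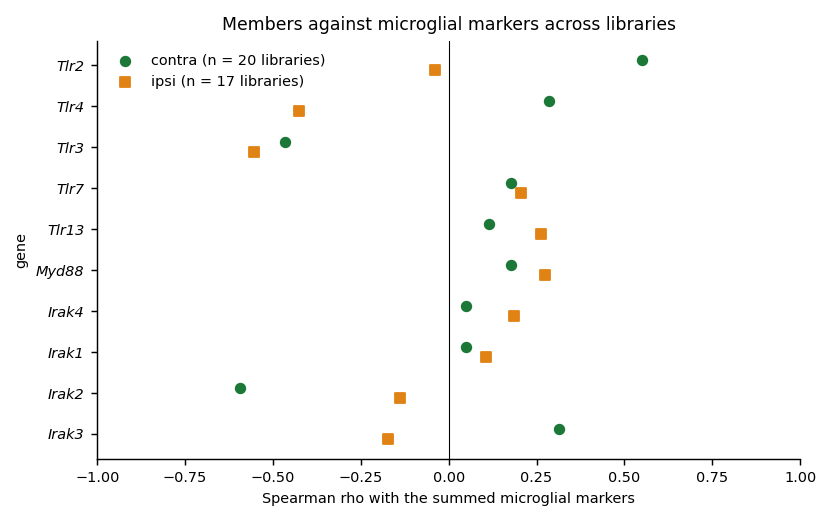
Spearman rho between each member's log2(CPM + 1) and the log2 of the 16 summed microglial markers plus 1, over 20 contralateral (circles) and 17 ipsilateral (squares) libraries. Values run from -0.593 (Irak2, contralateral) to 0.549 (Tlr2, contralateral), and none passed after adjustment over the 20 pairs.

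Around the members, 65 further genes of the pathway were listed in 7 groups: 7 other Toll-like receptors, 8 co-receptors and trafficking proteins, 4 further adaptors, 8 genes of the interleukin-1 receptor arm that shares Myd88, 17 downstream signalling genes, 9 brakes and 12 target genes. Contralaterally 48 passed the count filter, of which 2 had an unadjusted edgeR p below 0.05 for PTE+ against PTE- (1 higher, 1 lower), 1 for PTE- against sham (lower) and 0 for PTE+ against sham. These are 4.17%, 2.08% and 0.0% of the 48, beside 2.21%, 1.54% and 1.23% of all genes. Nos2, the inducible nitric oxide synthase, was read in 3 of 5 contralateral PTE+ libraries (median 3.40 CPM), 1 of 10 PTE- libraries and 1 of 5 sham libraries (log2 fold change of PTE+ over PTE- 6.95, SE 2.14, edgeR unadjusted p = 0.00373, adjusted 1.0). Ticam2, the adaptor that links Tlr4 to Ticam1, was at or under 3 counts in all 5 PTE+ libraries and over it in 5 of 10 PTE- libraries (edgeR unadjusted p = 0.0228, adjusted 1.0). The medians, 0.0545 CPM in PTE+ and 0.0895 in PTE-, were both near this limit. The PTE- mean of 2.91 ± 8.76 CPM (SD, n = 10) was carried by 1 library at 27.8 CPM. Ipsilaterally 50 passed the filter, with 0 for PTE+ against PTE-, 1 for PTE- against sham (lower) and 2 for PTE+ against sham (1 higher, 1 lower), or 0.0%, 2.0% and 4.0%, beside 1.75%, 1.58% and 1.66% of all genes. The best measured of these was Dusp1, a phosphatase that switches off MAP kinases, at 385 ± 291 CPM in sham (n = 5), 179 ± 80.7 in PTE- (n = 8) and 116 ± 35.8 in PTE+ (n = 4) libraries on the ipsilateral side. Its sham libraries ran from 67.7 to 662 CPM, PTE- from 118 to 353 and PTE+ from 82.2 to 161, so the groups overlapped. Its log2 fold changes were -1.10 (SE 0.48, edgeR unadjusted p = 0.033, adjusted 1.0) for PTE- and -1.73 (SE 0.60, edgeR unadjusted p = 0.00981, adjusted 1.0) for PTE+ over sham. Cyld, a deubiquitinase that restrains NF-kB, had a log2 fold change of 2.10 (SE 0.96) for PTE+ over sham (edgeR unadjusted p = 0.0408, adjusted 1.0). Its ipsilateral PTE+ libraries ran from 3.39 to 128 CPM (mean 43.7 ± 56.8, SD, n = 4, median 21.8) and its sham libraries from 1.54 to 14.95 (median 12.6), so they overlapped. The PTE- median, 32.95 CPM, was above that of PTE+. Between hemispheres 58 passed the filter, with 2 in sham mice (both higher ipsilaterally), 6 in PTE- mice (2 higher, 4 lower), 3 in PTE+ mice (2 higher, 1 lower), 1 for the hemisphere difference of PTE+ against PTE- and 3 for that of PTE- against sham. These are 3.45%, 10.3%, 5.17%, 1.72% and 5.17% of the 58, beside 2.05%, 4.56%, 2.93%, 2.94% and 3.13% of all genes, and nothing particular to the list is read from them. Among them was Cd180, a Toll-like receptor homologue, which exceeded 3 counts in 0 of 8 ipsilateral PTE- libraries and 2 of 10 contralateral ones. No listed gene passed with adjustment. The median log2 fold change of the 50 genes tested ipsilaterally was 0.01 for PTE+ against PTE-, beside -0.01 over all genes.

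The genes whose levels followed each member most closely were sought over 20 contralateral and 17 ipsilateral libraries, by the mean of the 2 Spearman rhos. They are a description with no test, and libraries, depth and detection are shared by all genes compared. Irak2 was followed most closely by Gja1 (mean rho 0.733), the astrocyte gap junction gene connexin 43, then by Ak4 (0.683) and Mapre2 (0.657). Irak1 was followed by Ank3 (0.718), Ifitm10 (0.701) and Rhobtb2 (0.684). Tlr3 was followed by Manea (0.673), Ccdc59 (0.665) and the vascular growth factor gene Vegfa (0.645). Myd88 was followed by Tmem141 (0.731), Gnpnat1 (0.707) and Bud31 (0.697). Irak4 was followed by Amd2 (0.696), the transcription factor gene Klf6 (0.657) and Tmem219 (0.627), and Irak3 by the glucagon receptor gene Gcgr (0.778), Abca8a (0.676) and Pelo (0.666). For the receptors with many libraries at 0 the closest were Rasgef1c for Tlr2 (0.791), Zfp263 for Tlr4 (0.689), Chac1 for Tlr7 (0.649) and Rcc2 for Tlr13 (0.617). No member was among the 3 closest genes of another member.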

How the data were processed

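The authors deposited, for each library, RSEM expected counts and TPM per gene. Per the labels and the study's methods, hippocampal astrocytes were captured with ACSA-2 beads, libraries were made with SMART-Seq V4, which keeps no strand, and reads were trimmed with Trim Galore 0.6.4 and aligned to mm10 with Bowtie2 2.4.1 under RSEM 1.2.28. The authors compared groups with DESeq2 1.36.0. The annotation release used for counting is not given in the sources used here, and 0 sample columns were left unmapped.

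The deposited counts were tested as given with edgeR 4.0.16 (quasi-likelihood F-test, TMM scaling, edgeR's filter on low counts, R 4.3.3) over all genes of a hemisphere, with the 3 groups in one fit, and over the 17 mice with both libraries for hemisphere comparisons. The standard error of a log2 fold change is its size divided by the root of F. P-values were adjusted by Benjamini-Hochberg over all genes tested. Single genes were also compared by two-sided exact permutation tests on log2(CPM + 1), adjusted over 96 tests. Library precision is set by 25371887 to 59846479 counts. A reading means more than 3 counts, and such limits cover counting error alone. The members, the pathway lists and the marker lists were chosen with earlier results of these data known. Named pathway genes are those with an unadjusted p below 0.05, and the 3 genes most like each member were taken by mean Spearman rho. The 2 libraries of a mouse are paired by design. Their deviations from the group means correlated at a median of 0.0787, against -0.0141 between mice, and a replicate block (mouse) was tried as an alternative, giving -12.64 for Irak4 in the hemisphere difference of PTE+ and PTE- mice. No 2 libraries held identical values. Alternatives were DESeq2 1.42.0, limma 3.58.1 on log2(TPM + 1) and log2(TPM + 0.1), other size factors, no low-count filter, the name prefix as a covariate, only the compared groups, the study's 3 criteria, each library left out and, added after the values were seen, ipsilateral values without the libraries with few genes detected. Only the edgeR fit within a hemisphere was tested on simulated counts.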

Additional observations from a re-analysis of the deposited data

Results flagged for a closer look

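Within groups of 4 to 10 libraries, 25 of 58 sets of member values had 1 library far from the others (18 high, 7 low) by Dixon's criterion, where chance flags about 1 in 20 groups. Many sets hold mostly zeros, in which any single reading stands out. On the contralateral side the high libraries among PTE+ mice were Myd88 at 61.4 CPM (a8_17), Tlr13 at 3.81 (a9_19) and Tlr7 at 4.69 (a9_17), and the low one was Irak1 at 103 CPM (a8_17). Among contralateral PTE- mice they were Irak3 at 5.87 CPM (a9_12) and Tlr7 at 1.80 (a8_11), with Tlr3 low at 2.51 (a9_20). Among contralateral sham mice they were Irak3 at 1.79 CPM (a8_15), Tlr13 at 8.33 (a9_10), Tlr4 at 11.2 (a9_11) and Tlr7 at 4.03 (a9_11), with Myd88 low at 0 and Tlr3 low at 43.6 CPM (both a8_16).

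On the ipsilateral side, PTE+ mouse a9_17 was high for Irak3 (0.456 CPM), Irak4 (0.123) and Tlr2 (2.16). PTE- mouse a8_11 was low for Irak1 (1.83 CPM), Irak2 (0.178) and Tlr3 (0), and PTE- mouse a9_13 was high for Tlr2 (3.26) and Tlr7 (5.10). Sham mouse a9_9 was high for Irak2 (472 CPM), a9_10 for Tlr13 (5.71), and a8_15 for Tlr2 (2.56) and Tlr7 (1.49).

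Hemisphere differences (ipsilateral minus contralateral, log2) that differed between PTE+ and PTE- mice by a test with no adjustment were those of Tlr7 (-9.80, edgeR) and Irak3 (-1.74, exact permutation), and neither passed after adjustment. In 2 further cases every mouse of one group moved one way and every mouse of the other the opposite way, and the difference was not tested. These were Myd88 in PTE+ against sham mice (-3.94) and Irak4, which was chosen for it, in PTE+ against PTE- mice (-3.51). The share of all genes that separate in this way was not counted, so these cases are not read as unusual.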

How the results depend on the processing

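Of the 98 member-by-comparison values, 41 (of 9 members) changed sign under at least 1 alternative, 0 of them past the unadjusted threshold in the main test. With the sign changed, 1 passed it (Tlr7 between hemispheres in PTE- mice, -6.99 without mouse a9_13). Of the PTE+ over PTE- values given above, those of Tlr3 ran from -0.12 to 0.17 contralaterally and from -0.050 to 0.45 ipsilaterally with 1 library left out, those of Irak2 from -0.043 to 0.15 and from -0.022 to 0.32, and that of Irak1 from -0.021 to 0.65 ipsilaterally. The counts of members at an unadjusted p below 0.05, which include the chosen Irak4 and Tlr13, moved as follows. With limma on log2(TPM + 1) they were 2 for contralateral PTE+ against PTE- (1 in the main test), 0 for ipsilateral PTE+ against PTE- (2), 0 between hemispheres in PTE+ mice (3) and 1 for the hemisphere difference of PTE+ against PTE- mice (3), and with log2(TPM + 0.1) the first was 2 and the second 1. The log2(TPM + 1) scale moved the median of all genes to 0.28 for contralateral PTE+ against PTE- (main -0.05) and to 0.25 ipsilaterally (main -0.01), and the share of called genes that were higher in PTE+ to 92.7% (main 39.6%) and 74.5% (main 18%). With the study's 3 criteria the counts were 0 for contralateral PTE+ against PTE- and 0 for ipsilateral PTE+ against sham (1). With only the compared groups fitted, ipsilateral PTE+ against PTE- gave 1 and against sham 0, and with the name prefix as a covariate the latter gave 2. With the replicate block (mouse) the count was 1 between hemispheres in PTE+ mice and 1 for the hemisphere difference of PTE- against sham (0), and RLE size factors also gave 1 for the latter (Irak4 in both). DESeq2 gave no p for called members in 5 comparisons. The causes were not tested.

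Leaving out 1 library or mouse, counts ran from 0 to 1 in the 3 contralateral comparisons, ipsilaterally from 1 to 3 for PTE+ against PTE-, 0 to 2 for PTE+ against sham and 0 to 1 for PTE- against sham, between hemispheres from 0 to 1 in PTE+, 0 to 4 in PTE- and 0 to 3 in sham mice, and for the hemisphere differences from 1 to 4 (PTE+ against PTE-) and 0 to 3 (PTE- against sham). Counts moved without sham mouse a8_15 (6 comparisons) or a9_11, PTE+ mouse a8_10, a8_17, a9_17, a9_18 or a9_19, and PTE- mouse a8_11, a8_14, a9_12, a9_13 or a9_16. The 6 low members rest on few libraries, so single libraries decide their fold changes.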
